A study of Mus musculus with 9 samples.

Results

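The 48 genes described here encode the machinery that copies DNA: the origin recognition complex and its licensing partners, the MCM helicase and the factors that start it, the sliding clamp and its loader, the single-strand binding protein RPA, the replicative polymerases, the enzymes that finish the lagging strand, and enzymes that supply deoxynucleotides. They were chosen by name, and all 48 were found among the 20221 gene names of the deposited table. The series holds 9 mouse testis samples of strain C57BL/6 from postnatal day 10: 3 RNA-seq libraries labelled Lin28a knockout, whose titles abbreviate the genotype as cKO, 3 RNA-seq libraries labelled wild type, and 3 LIN28A CLIP samples, which were not analysed here. No Cre driver or allele is named in the sources used here, nor whether each library is a separate animal. The RNA-binding protein LIN28A, made by undifferentiated spermatogonia, keeps let-7 microRNAs from maturing.

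Replication starts when the origin recognition complex, with CDC6 and CDT1, loads rings of MCM2 to MCM7 onto DNA in the G1 phase of the cell cycle. At S phase the kinase CDC7 and the factors CDC45 and GINS turn each ring into an active helicase, and polymerases held on DNA by PCNA copy both strands. In the juvenile testis, dividing spermatogonia, germ cells in the S phase before meiosis and Sertoli cells, which still divide at this age, all make these proteins.

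Levels are in FPKM, a fragment count divided by transcript length and library size, so that levels can be compared between genes. The table holds 1 value for each group in columns named case and control, read as knockout and wild type from those names alone. No value per library was used, so no SD or n can be given, the depth is unknown, and no difference below can be set against the spread between replicates. Lin28a itself measured 23.4 FPKM under the case label and 8.82 FPKM under the control label, a 2.66-fold difference (q = 0.00191 in the authors' deposited table). That runs against the label, so every direction rests on the column names, and the groups are called by them throughout. FPKM summed to 328509 in the case column and 325735 in the control column over 29661 rows. The testis was recognisable in both columns, with the Sertoli cell gene Clu at 2028 and 2251 FPKM and the spermatogonial gene Uchl1 at 259 and 264 FPKM, case and control.

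The replication genes were close to equal in the 2 columns. The ratio of case to control lay between 0.814, for Gins2, and 1.16, for Pole2, and 37 of the 48 genes had a ratio between 0.9 and 1.1. Of the 45 genes whose leading row carried a p-value, 0 passed a q-value of 0.05 in either direction in the authors' deposited table, where 0.0514% of all tested rows passed. At an unadjusted p under 0.05 the count was also 0, against 1.28% of all tested rows, and over 52 tested rows of these genes the smallest p was 0.320, for Prim1, in the authors' deposited table. With backgrounds that low, a count of 0 among this many genes is near the background and says little about them. Every tested row of these genes carried the same q-value, 0.999966, in the authors' deposited table.

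Sizes of difference were also described without a test. A ratio past 1.2-fold in either direction was seen in 2 of 48 replication genes, Gins2 and Prim1, against 15.1% of the 12307 genes with a mean of at least 1 FPKM and 8.93% of the 9333 genes with a mean of at least 5 FPKM. Past 1.1-fold there were 12 of 48, against 38.3% of genes at 1 FPKM or more. All 48 genes had a mean of at least 1 FPKM and 47 a mean of at least 5. Because ratios scatter more at low levels, the count of 11 of 47 is to be read against 30.6% of genes at 5 FPKM or more. The median absolute difference of log2(FPKM + 1) was 0.077 over the replication genes and 0.091 over all genes at 1 FPKM or more. Over genes at 5 FPKM or more it was 0.082, near that of the replication genes.

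The direction of these small differences leaned to lower values in the case column. Of the 48 genes, 29 (60.4%) were lower and 19 (39.6%) higher, where 39.2% of all genes were lower and 60.8% higher. On the log2(FPKM + 1) scale the median of case minus control was -0.055, beside 0.033 over all genes at a mean of at least 1 FPKM. The control column was also rescaled by the median ratio of all genes (1.03). That moves differences down by at most about 0.037 on the log2 scale, and by less at low levels. With the rescaled column 35 of the replication genes (72.9%) were lower and 13 higher, while the rescaling by its construction put all genes evenly on both sides. No test of the list was made, and no gene in it passed the authors' test.

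**Figure D1:**
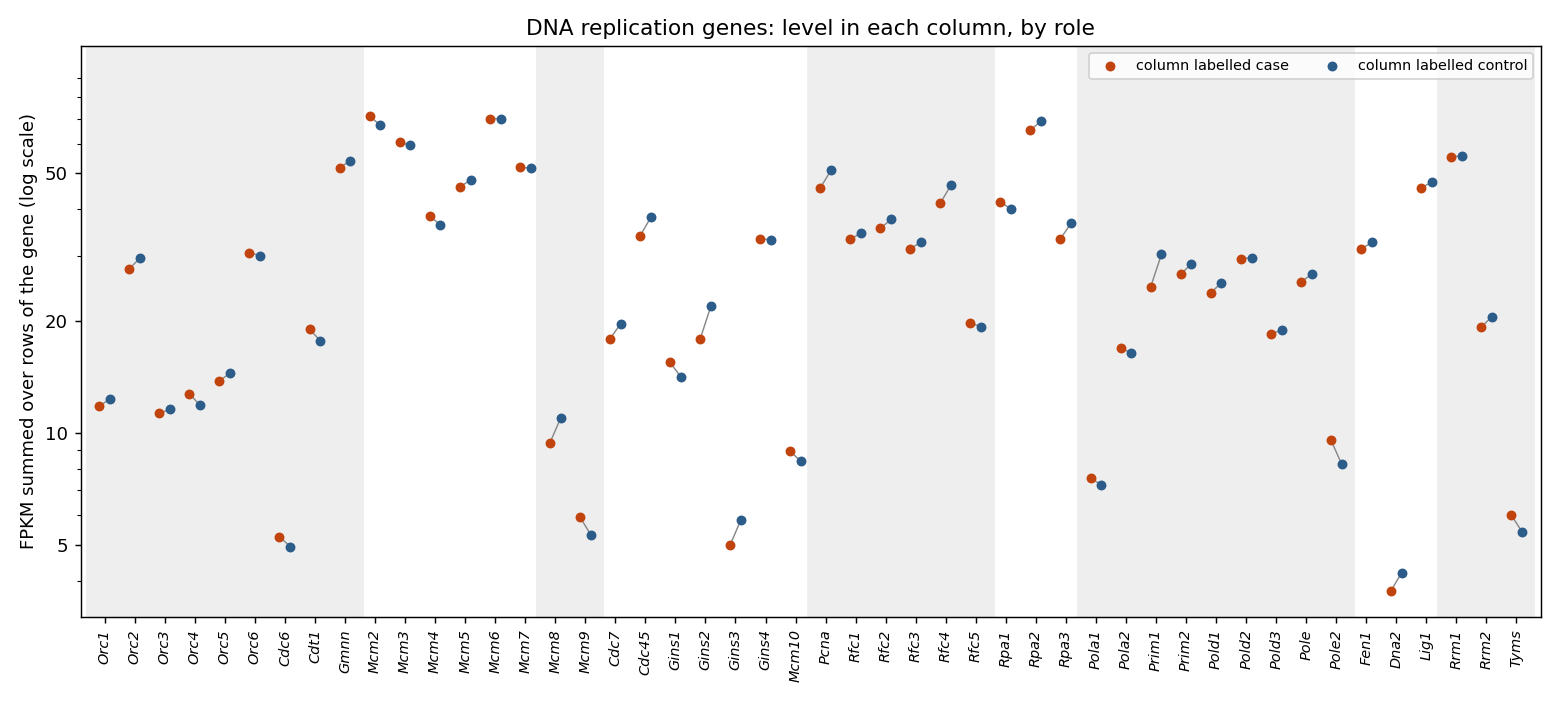
FPKM of each replication gene (vertical axis, log scale) in the column labelled case (orange, left of each pair) and the column labelled control (blue, right), with genes grouped by role in alternating bands. Each point is a single value for its group, so there are no error bars; levels run from about 4 FPKM for Dna2 to about 70 FPKM for Mcm2 and Mcm6, and the members of a pair lie close together throughout.

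**Figure D2:**
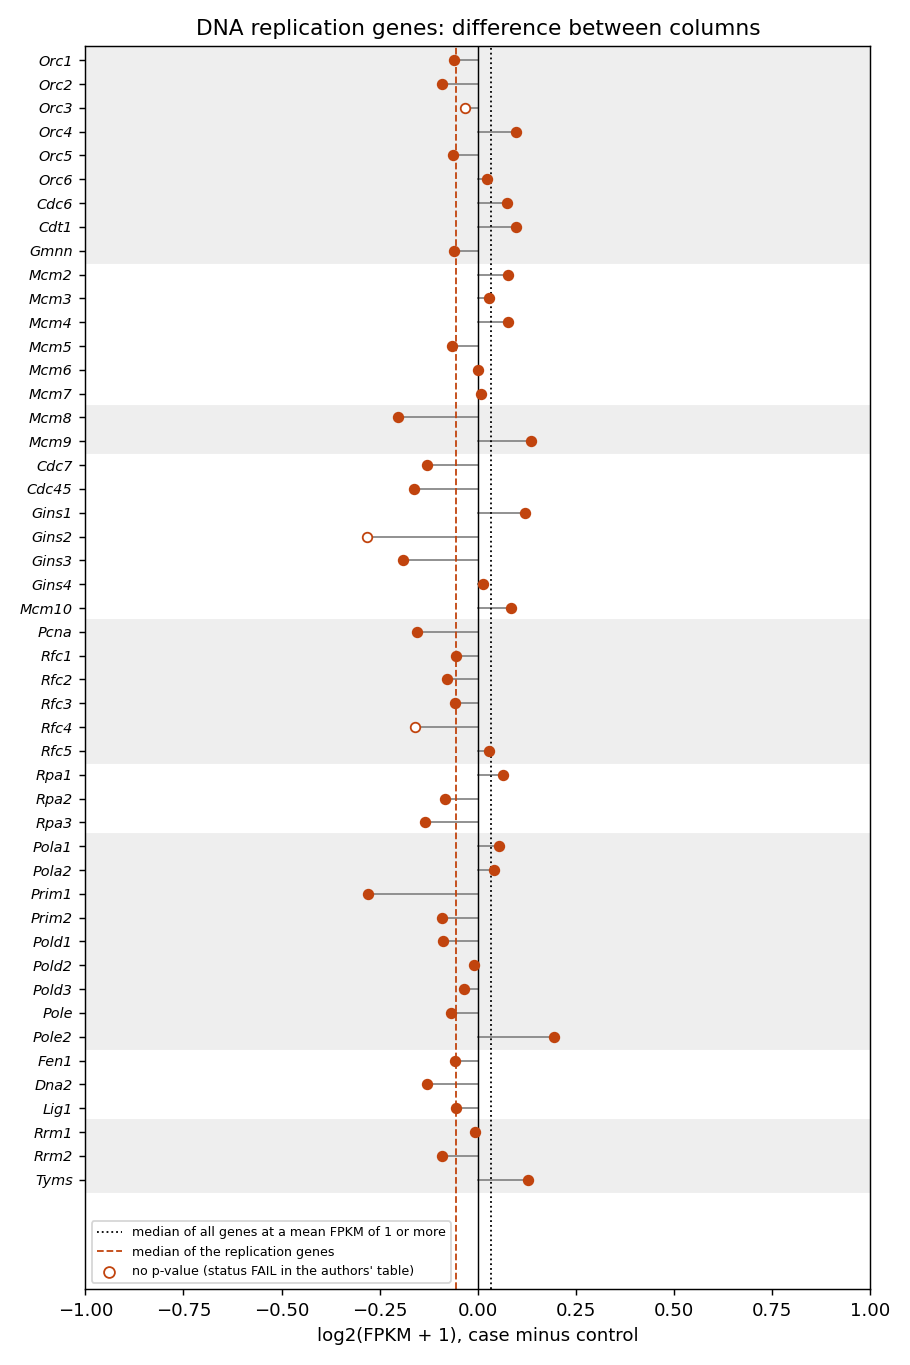
Difference of log2(FPKM + 1), case minus control, for each replication gene in order of role. Open circles are the 3 genes whose leading row has no usable p-value, the dashed line is the median of the replication genes (-0.055) and the dotted line that of all genes (0.033); all points lie between -0.28 and 0.19.

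Many of these genes share a promoter feature that played no part in choosing them, though the 4 motifs were picked after the values were seen. E2F transcription factors, released from the retinoblastoma protein as cells enter S phase, bind sites such as TTTCCCGC, TTTCGCGC, TTTGCCGC and TTTGGCGC. These 4 motifs were searched on both strands, with overlapping matches joined, in RefSeq windows of 300 bases (build GRCm38.p6, 250 bases before to 50 after each start). Windows were at hand for 40 of the 48 genes, and 16 of the 40 (40.0%) held a match, against 2.60% of the 27025 genes with a window. By single window the shares were 32.7% of 49 windows of replication genes and 2.26% of all 32851 windows. The genes and windows compared were not matched for base composition, and the shares were not tested. A match is a run of letters and not a measured binding site, and a window without one says nothing about the factor.

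Matches whose surrounding 30 bases lie wholly before the start are printed 5′ to 3′ on the strand of the gene, with the motif letters in capitals, to show which of the 4 motifs these genes carry, that they read in either direction, and that Mcm5 and Mcm6 carry overlapping pairs.
Orc1 (chr4:108579416-108579445, plus strand): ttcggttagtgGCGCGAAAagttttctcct
Orc3 (chr4:34614965-34614994, minus strand): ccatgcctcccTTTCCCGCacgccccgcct
Cdc6 (chr11:98908002-98908031, plus strand): gccggtggagaGCGGGAAAtcgcctggggt
Mcm5 (chr8:75109347-75109376, plus strand): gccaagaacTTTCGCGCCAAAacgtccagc
Mcm6, upstream match (chr1:128359795-128359824, minus strand): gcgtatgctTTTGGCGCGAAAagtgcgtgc
Mcm6, match nearer the start (chr1:128359734-128359763, minus strand): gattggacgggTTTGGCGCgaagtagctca
Mcm7 (chr5:138172030-138172059, minus strand): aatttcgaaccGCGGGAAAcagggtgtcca
Gins3 (chr8:95633507-95633536, plus strand): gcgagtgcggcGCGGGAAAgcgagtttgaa
Pola1 (chrX:93632275-93632304, minus strand): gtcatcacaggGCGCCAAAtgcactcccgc

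The matches lay in different places. Those printed began 27 bases before the start in Orc1, 41 in Orc3 and Gins3, 110 and 47 in Mcm6, 138 in Cdc6 and Pola1, 153 in Mcm5 and 165 in Mcm7. Starts, here and for the printed matches, are the RefSeq starts of the windows. The deposited interval of Cdc6 begins further upstream, at 98907889, so its printed match lies inside that interval. Rfc3 had a match beginning 10 bases before the start and another at the start itself. The others began between 10 and 39 bases after the start, in Cdt1, Mcm3, Mcm7, Mcm8, Pold1, Pold3, Pole2 and Lig1. By role, a match was found in 4 of 5 MCM2 to MCM7 genes with a window, 4 of 8 licensing genes, 4 of 7 polymerase genes, 0 of 3 RPA genes and 0 of 3 nucleotide synthesis genes. The 16 genes with a match had a median difference of -0.034 (7 higher, 9 lower) and the 24 without one had -0.057 (9 higher, 15 lower). With both ranges spanning 0, these medians were not tested against each other.

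Licensing genes mark origins and load the helicase. The median difference of the 9 was -0.033, with 4 higher and 5 lower. Past 1.1-fold lay 0 of the 9, against 30.6% of genes at 5 FPKM or more. Orc6 (NM_019716; mm10 chromosome 8, 85299632 to 85308279) and Orc2 (NM_008765; chromosome 1, 58462771 to 58504919) were the best expressed subunits of the origin recognition complex, at 30.5 and 27.7 FPKM in the case column, against 30.01 and 29.6 FPKM in the control column. The other 4 subunits stood lower, at 11.8 and 12.3 FPKM for Orc1, 11.3 and 11.6 for Orc3, 12.8 and 11.8 for Orc4, and 13.8 and 14.5 for Orc5, case and control. The gap between the upper pair and the other 4 subunits was wider than any difference between columns.

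Partners of the complex spanned a wide range of levels. Gmnn (NM_020567; chromosome 13, 24751845 to 24761937) encodes geminin, which holds CDT1 inactive after origins fire, and was at 51.7 FPKM in the case column and 54.0 FPKM in the control column (p = 0.830 in the authors' deposited table). Its target Cdt1 was at 19.0 and 17.7 FPKM, case and control. Cdc6, the ATPase that works with CDT1, was at 5.25 and 4.94 FPKM. Geminin mRNA was thus more abundant per length than that of CDT1 in both columns.

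The MCM2 to MCM7 helicase genes had the highest median level of the 9 roles and the smallest median absolute difference, 0.047 on the log2(FPKM + 1) scale. Mcm2 (NM_008564; chromosome 6, 88883474 to 88898780) was at 71.1 FPKM in the case column and 67.3 FPKM in the control column, with p = 0.742 in the authors' deposited table. Mcm6 was at 70.1 FPKM in each column, and Mcm3 at 60.6 and 59.4 FPKM, case and control. Mcm7 was at 51.9 and 51.6 FPKM, Mcm5 at 45.8 and 48.02, and Mcm4 at 38.3 and 36.3. The proteins form a ring with a copy of each subunit, and the highest mRNA was 1.86 times the lowest in the case column and 1.93 times in the control column. All but Mcm5 were a little higher in the case column; the median difference of 0.019 turned to -0.018 with the rescaled control column, so no direction can be given.

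Mcm8 and Mcm9 belong to the same family by sequence but act in homologous recombination, and mice lacking either have defects in their germ cells. Their mRNAs were far below those of the ring. Mcm8 (NM_025676; chromosome 2, 132816335 to 132844188) was at 9.38 FPKM in the case column and 11.0 FPKM in the control column, a ratio of 0.856 with p = 0.468 in the authors' deposited table. Mcm9 (NM_027830; chromosome 10, 53537324 to 53630439) was at 5.94 and 5.32 FPKM, a ratio of 1.12 with p = 0.638 in the authors' deposited table. The pair thus lay on opposite sides of 1, each past 1.1-fold, as were 30.6% of genes at 5 FPKM or more. Neither passed the q-value threshold. The deposited interval of Mcm9 also holds another named gene, so its level is less certain.

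Helicase activation genes had the lowest median difference of any role, at -0.129, with 3 of 7 higher and 4 lower. That place rests on Gins2, whose row has status FAIL: over rows with status OK the median of 6 genes was -0.058, nearer 0 than that of RPA, and 3 lay on each side. Cdc45 (NM_009862; chromosome 16, 18780447 to 18811972), a component of the active helicase, was at 33.9 FPKM in the case column and 38.0 FPKM in the control column (ratio 0.891; p = 0.395 for its leading row in the authors' deposited table). Cdc7, the kinase that triggers firing, was at 17.9 and 19.7 FPKM, and Mcm10, which helps the helicase to start, at 8.93 and 8.37 FPKM. Neither reached 1.1-fold.

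The 4 subunits of GINS did not move together. Gins2 was at 17.8 FPKM in the case column and 21.9 FPKM in the control column, the lowest ratio of all 48 genes (0.814), and Gins3 was at 4.99 and 5.83 FPKM, a ratio of 0.855 (p = 0.574 in the authors' deposited table). By contrast Gins1 was at 15.5 and 14.2 FPKM (1.09), and Gins4 at 33.3 and 33.04 FPKM (1.01), below 1 with the rescaled control column. The deposited interval of Gins2 (chromosome 8, 120488866 to 120589075) is 100210 bases long and also holds Gse1, while the gene in the RefSeq table is 7810 bases long. Its row has status FAIL, which leaves no usable p-value. Orc3 and Rfc4, the other 2 genes whose leading row has that status, likewise share their interval with another gene, Akirin2 and Eif4a2. In all, 7 of the 48 intervals held another named gene, those of Gins2, Orc3, Rfc4, Orc4, Mcm9, Pold2 and Lig1. Reads of these genes may be split between neighbours, so their levels are less certain.

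PCNA is the ring that tethers polymerases to DNA, and RFC opens and loads it. Pcna (NM_011045; chromosome 2, 132249286 to 132253180) was at 45.6 FPKM in the case column and 50.9 FPKM in the control column, a ratio of 0.896 with p = 0.562 in the authors' deposited table. The RefSeq table lists 2 pseudogenes named after Pcna, which can take its reads. Rfc4 was at 41.5 and 46.5 FPKM (0.893), Rfc2 at 35.5 and 37.5, Rfc1 at 33.2 and 34.5, Rfc3 at 31.3 and 32.6, and Rfc5 at 19.7 and 19.3 FPKM, case and control. Only Rfc5 of these 6 genes was higher in the case column, and it too was lower with the rescaled control column; their median difference was -0.069.

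RPA, a trimer that coats single-stranded DNA at forks and at meiotic breaks, was among the better expressed complexes. Rpa2 (NM_011284; chromosome 4, 132768360 to 132778746) was at 65.3 FPKM in the case column and 69.2 FPKM in the control column, with p = 0.731 in the authors' deposited table. Rpa1, the large subunit, was at 41.8 and 40.0 FPKM, and Rpa3 at 33.3 and 36.7 FPKM. The 3 subunits did not share a direction.

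Among genes whose leading row has a p-value, the lowest and the highest summed ratio were both in the polymerase group. Prim1 (NM_008921; chromosome 10, 128015215 to 128030030) encodes the catalytic subunit of primase, which lays down the RNA primer. It was at 24.7 FPKM in the case column and 30.2 FPKM in the control column, a ratio of 0.817 with p = 0.320 in the authors' deposited table. Pole2 (NM_011133; chromosome 12, 69201779 to 69228190), the accessory subunit of the leading-strand polymerase epsilon, was at 9.58 and 8.24 FPKM, a ratio of 1.16 with p = 0.575 in the authors' deposited table. Their partners within the same enzymes were nearer to 1: Prim2 was at 26.7 and 28.5 FPKM, and Pole, the catalytic subunit of epsilon, at 25.5 and 26.7 FPKM.

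The remaining polymerase genes lay within 1.1-fold. Pola1 (chromosome X, 93304766 to 93632155), the catalytic subunit of polymerase alpha and the single X-linked gene of the 48, was at 7.56 FPKM in the case column and 7.24 FPKM in the control column. Its partner Pola2 was at 16.9 and 16.4 FPKM. For the lagging-strand polymerase delta, the catalytic subunit Pold1 was at 23.8 and 25.4 FPKM, Pold2 at 29.4 and 29.6, and Pold3 at 18.4 and 18.9 FPKM. The median difference over the 9 genes was -0.036, with 3 higher and 6 lower.

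Okazaki fragments are trimmed by FEN1 and DNA2 and sealed by LIG1. Lig1 (NM_010715; chromosome 7, 13258967 to 13311427) was at 45.6 FPKM in the case column and 47.4 FPKM in the control column, and Fen1 at 31.2 and 32.5 FPKM. Dna2 was the least expressed of all 48 genes, at 3.76 and 4.21 FPKM, a ratio of 0.893 with p = 0.659 in the authors' deposited table. All 3 were lower in the case column by small amounts, with a median difference of -0.059.

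For deoxynucleotide supply, Rrm1, the large subunit of ribonucleotide reductase, was at 55.3 FPKM in the case column and 55.6 FPKM in the control column. Its S-phase partner Rrm2 was at 19.2 and 20.6 FPKM, so the large subunit had the more abundant mRNA per length in each column. Tyms (NM_021288; chromosome 5, 30058200 to 30073625), thymidylate synthase, was at 6.02 and 5.42 FPKM, a ratio of 1.11 with p = 0.662 in the authors' deposited table. The RefSeq table lists 1 pseudogene named after it.

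The order of levels was nearly the same in both columns, with Mcm2, Mcm6, Rpa2, Mcm3 and Rrm1 at the top and Dna2, Gins3, Cdc6, Tyms and Mcm9 at the bottom. As a description over 48 genes that share their libraries, Spearman's rho of the 2 columns was 0.993. The median of the mean levels was 27.5 FPKM, above 75.9% of the 12307 genes at 1 FPKM or more, whose own median was 12.3 FPKM.

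Of the 48 genes, 39 had a single transcript row and 9 had more. The lesser transcript made up over 10% in 5 of these 9 genes. The lesser row took 31.5% of the summed FPKM of Orc2 in the case column and 32.4% in the control column, 44.2% and 47.9% of Orc3, and 33.8% and 31.0% of Orc4. For Cdc45 it took 35.2% in the case column and 31.6% in the control column. The largest ratio among rows at 1 FPKM or more was that of the lesser Orc6 row (NM_001163791), 1.38, at 4.81 FPKM in the case column and 3.49 FPKM in the control column, with p = 0.458 in the authors' deposited table. It took 15.8% and 11.6% of the gene, so the summed level of Orc6 was almost equal. The lesser rows of Cdc6, Rpa1, Pola2 and Lig1 took between 1.81% and 8.13% in either column.

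**Figure D3:**
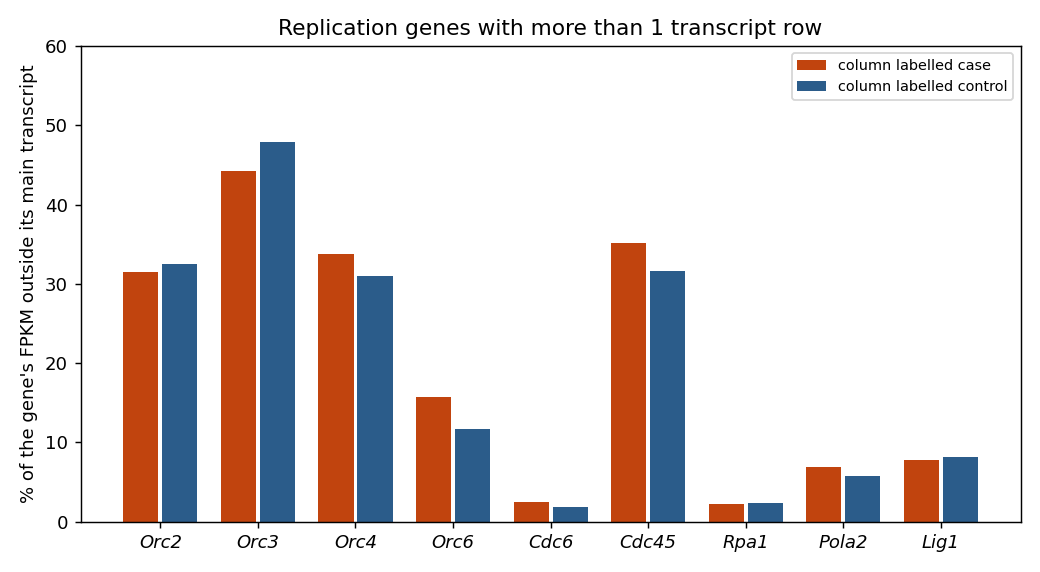
Share of each gene's summed FPKM (vertical axis, %) that lies outside its leading transcript row, for the 9 replication genes with more than 1 row, in the column labelled case (orange, left) and the column labelled control (blue, right). Orc2, Orc3, Orc4 and Cdc45 each hold over 30% outside the leading row in both columns, and the bars of a pair differ by only a few percentage points.

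Other genes of the pathway, from 4 further lists, also differed little between the columns, but the list medians lay on both sides of 0. Of 49 genes, 47 were found by name. In the case column 19 were higher and 28 lower, against 60.8% and 39.2% of all genes, with a median difference of -0.032. Of the 44 with a p-value, 0 passed q under 0.05 or an unadjusted p under 0.05 in the authors' deposited table. The shares over all tested rows were 0.0514% and 1.28%. The 14 firing and fork factors had a median of -0.087, with 3 higher and 11 lower. Tipin, which with TIMELESS steadies forks, was at 73.0 FPKM in the case column and 88.5 FPKM in the control column (p = 0.274 in the authors' deposited table). Topbp1, a scaffold of origin firing and of the checkpoint, was at 36.1 and 41.4 FPKM, and Ticrr, its partner in firing, at 4.003 and 4.68 FPKM.

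Chromatin assembly genes had a median of -0.064, with 2 of 8 higher and 6 lower, and of -0.129 when only the leading row of each gene was used. Asf1b, a chaperone of histones H3 and H4, was at 35.6 FPKM in the case column and 44.6 FPKM in the control column, with p = 0.223 in the authors' deposited table, the gene of these 47 with the lowest ratio (0.798). Nasp, another histone chaperone, was at 134 and 145 FPKM, and Chaf1b, of the chromatin assembly factor that rides on PCNA, at 10.3 and 11.8 FPKM. The 12 polymerase and clamp factors found by name had a median of 0.013 with 6 on each side. With the rescaled control column that median was -0.023, with 5 higher and 7 lower. The list included the topoisomerase Top2a at 77.3 and 93.6 FPKM, Dscc1, of an alternative clamp loader, at 6.86 and 8.28 FPKM, and Atad5, which unloads PCNA, at 7.76 and 8.67 FPKM. The 13 nucleotide supply genes found had a median of 0.037, with 8 higher and 5 lower (7 and 6 with the rescaled control column), among them Impdh2, of guanine nucleotide synthesis, at 4.54 and 3.82 FPKM, thymidine kinase Tk1 at 12.3 and 10.8 FPKM, and the dUTPase Dut at 29.8 and 28.002 FPKM.

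Genes of mitosis, the step after S phase, leaned the other way as deposited. Of 20, 16 were higher and 4 lower in the case column, against 60.8% and 39.2% of all genes, with a median difference of 0.055. By the leading row of each gene alone, 14 were higher and 6 lower, with the same median. Of the 19 with a p-value, 0 passed q under 0.05 or p under 0.05 in the authors' deposited table. The shares over all tested rows were 0.0514% and 1.28%. Ube2c, of the anaphase-promoting pathway, was at 45.3 FPKM in the case column and 38.4 FPKM in the control column, Aurkb at 17.7 and 15.5 FPKM, and Aurka at 17.4 and 15.5 FPKM. With the rescaled control column 11 were higher and 9 lower, with a median of 0.019. The replication and mitosis lists were not tested against each other.

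Genes of meiotic prophase, a list chosen like the others with earlier results of these data known, differed by far more than those of replication. All 20 found of 22 were lower in the case column, against 39.2% of all genes, with a median difference of -0.50. Past 1.2-fold lay 17 of 20, against 15.1% of genes at 1 FPKM or more. Ratios scatter more at low levels, and the 15 at 5 FPKM or more, all lower, had a median of -0.44. Of the 18 with a p-value, 0 passed q under 0.05 and 6 had an unadjusted p under 0.05 in the authors' deposited table. The shares over all tested rows were 0.0514% and 1.28%. Meiob, which binds single-stranded DNA together with RPA in meiosis, was at 1.92 FPKM in the case column and 6.82 FPKM in the control column (p = 6.01e-04, q = 0.492 in the authors' deposited table). Hormad1 was at 15.6 and 29.8 FPKM and Sycp2 at 15.3 and 24.9 FPKM, case and control. The E2F-type motif was present in the windows of 6 of 19 of these genes (31.6%) and of 1 of 19 mitosis genes (5.26%), so the promoter feature is not limited to genes of S phase.

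Markers of cell types also stood at unequal levels in the columns, and no marker found by name was listed at 0. Counts are of markers with a mean of at least 1 FPKM. They are to be read against all genes at that level, of which 60.8% were higher and 39.2% lower in the case column. Leydig cell genes were higher in the case column in 8 of 8, summing to 386 FPKM there and 305 FPKM in the control column. Peritubular and stromal genes were higher in 9 of 9 (915 and 800 FPKM), or 8 of 9 with the rescaled control column. Endothelial genes were higher in 7 of 7 (42.0 and 34.7 FPKM). Differentiating spermatogonia genes were lower in 7 of 10 (542 and 577 FPKM), or 9 of 10 with the rescaled control column. Of that sum, 259 and 264 FPKM came from Uchl1, named above as a spermatogonial gene, so the sum rests to a large part on 1 gene. Uchl1 was nearly equal in the 2 columns (ratio 0.982). Stra8, the next highest of the list, was at 68.1 and 86.3 FPKM, case and control. Undifferentiated spermatogonia genes were higher in 7 of 10 (70.1 and 68.7 FPKM), which is near the share of all genes. With the rescaled control column 6 of these 10 were higher. Sertoli cell genes were higher in 6 of 12 (4448 and 4564 FPKM), and macrophage genes were lower in 5 of 5 (60.2 and 76.1 FPKM). These sums too rest to a large part on 1 gene each. Clu gave 2028 and 2251 FPKM of the Sertoli sums, and Lyz2 31.9 and 45.6 FPKM of the macrophage sums. The direction of either sum is therefore not that of its list as a whole. Beside these sums, the replication genes summed to 1360 FPKM in the case column and 1401 FPKM in the control column. In whole testis, fewer cells of a type and less RNA per cell cannot be told apart, and the part of cell makeup in the values of the replication genes was not tested.

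**Figure D4:**
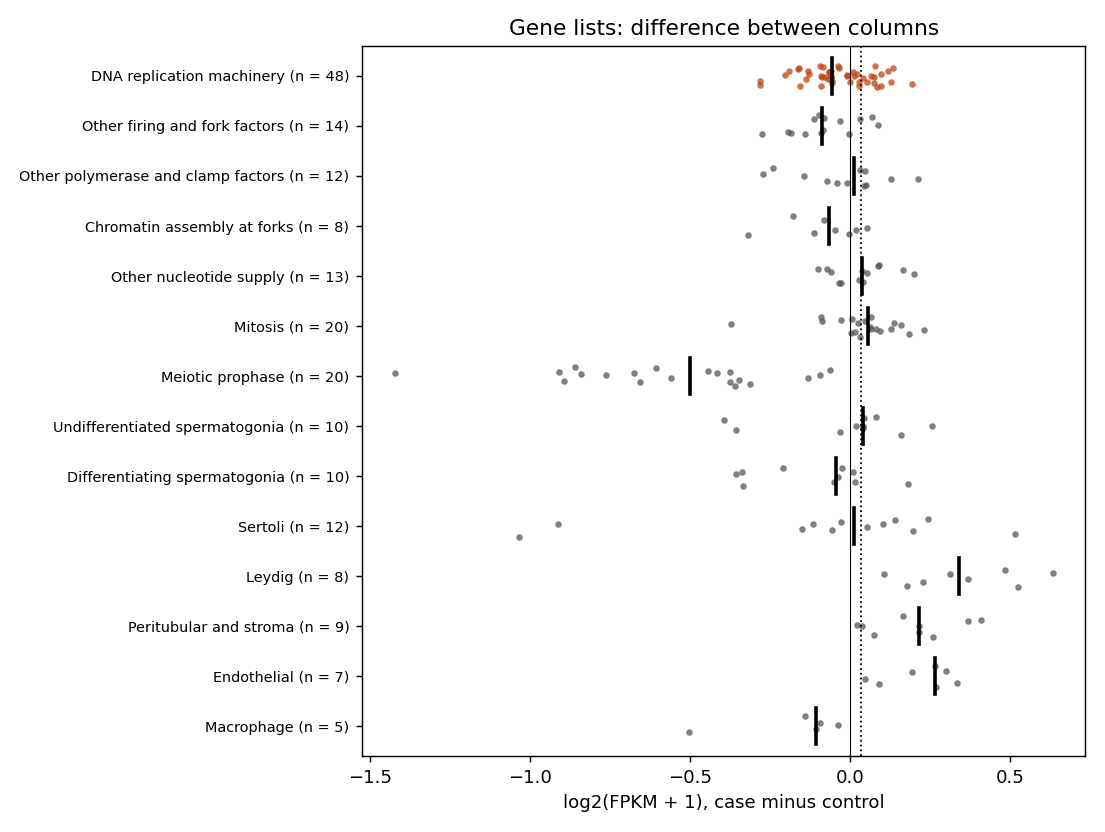
Difference of log2(FPKM + 1), case minus control (horizontal axis), for each gene of the replication machinery (orange) and of the other lists (grey), among genes with a mean of at least 1 FPKM; thick bars are list medians and the dotted line is the median of all genes (0.033). Replication genes lie between -0.28 and 0.19, with a median of -0.055. Meiotic prophase genes spread from -0.06 down to -1.42, and Leydig, peritubular and endothelial genes lie above 0.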

How the data were processed

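Per the submitters' processing notes, TopHat2 version 2.0.9 and build mm10 were used; what computed the FPKM is not given in the sources. The authors deposited FPKM in 1 column per group, with p-values and q-values of their own test for each RefSeq transcript row, per the file headers. Those q-values equal a Benjamini-Hochberg adjustment over 13629 rows of status OK (largest deviation 2.26e-06).

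Rows were assigned to a gene where any name in the row equals the symbol in any letter case, and FPKM was summed per gene (Python 3.11.15, pandas 2.3.3). Differences are of log2(FPKM + 1), case minus control, and medians use genes with a mean of at least 1 FPKM. A gene's p-value is that of its row with the highest FPKM, and a status of FAIL leaves none. Calls are the authors', at q under 0.05. Deposited starts count from 0 (13901 lie 1 below the RefSeq gene start, 987 equal it), so 1 was added. The steps were checked on simulated data.

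The members and lists were chosen with earlier results of these data known. All 48 genes may be named; of each pathway, mitosis or meiosis list, the 3 with the smallest p, and of cell types, the 2 with the highest FPKM. The folds of 1.1 and 1.2 and the motifs were chosen after the values were seen.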

Additional observations from a re-analysis of the deposited data

How the results depend on the processing

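Alternatives were a pseudocount of 0.1, no filter, a mean of at least 5 FPKM, the control column rescaled by the median ratio of genes, the leading row alone, rows with status OK alone, rows with more than 1 name left out and, added after seeing the data, rows matched by RefSeq accession. The replication median of -0.055 stayed between -0.091 (rescaled) and -0.052 (leading row alone). All 80 medians of the replication genes and their roles, 48 of the 6 pathway, mitosis and meiosis lists and 56 of the 7 cell type lists (run after seeing the data) moved by under 0.1 on the log2 scale. That is wide beside medians this near 0: under rescaling 3 changed sign, those of MCM2 to MCM7 (-0.018), the other polymerase and clamp factors (-0.023) and Sertoli genes (-0.023). Helicase activation went to -0.058 with status OK rows, and chromatin assembly to -0.129 with the leading row alone. Calls among replication genes numbered 0 at q under 0.05, at q under 0.10, with rows at 1 FPKM or more adjusted again, and at an unadjusted p under 0.05. No paired analysis was possible because the values analysed are not per library, and leaving out each library was not run for that reason. Depth is unknown and sets no interval.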

Other observations

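Bub1, a kinase of the spindle checkpoint, stood apart from the other mitosis genes and was chosen after its values were seen. Its rows summed to 22.5 FPKM in the case column and 29.3 FPKM in the control column, with status FAIL and no p-value. By summed FPKM, 16 of the 20 mitosis genes were higher in the case column, and by the leading row alone 14 were.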
